A study of Rattus norvegicus with 6 samples.

Results

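Mural cells are the contractile and supporting cells that wrap blood vessels, smooth muscle cells around arteries and pericytes around capillaries, and myofibroblasts are matrix-making cells that carry smooth muscle actin and appear in scarring organs. In the kidney, pericytes, mesangial cells and resident fibroblasts carry receptors for platelet-derived growth factor (PDGF), and PDGF-B released by endothelium and other cells is a growth and recruitment signal for cells with its beta receptor. The genes described here were 10 fixed symbols of these cells, each taken from the deposited table as the row with that symbol. They were the contractile genes Acta2, Tagln, Myh11 and Cnn1, the muscle filament gene Des, the PDGF genes Pdgfb, Pdgfra and Pdgfrb, and the pericyte genes Rgs5 and Cspg4. All 10 of 10 were found among 31368 genes, each on 1 row, and all 10 passed the filter on low counts that left 15371 genes for testing.

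RNA was sequenced from renal tissue of wild-type male Sprague-Dawley rats, 3 libraries labelled CKD (chronic kidney disease) and 3 labelled Sham, the controls. The design text gives an age of 8 weeks for the rats of the CKD model, and 8 weeks was taken as the age for all 6 libraries. Neither the design text nor the labels say how CKD was brought about or what the Sham rats underwent. Totals ran from 15918035 to 17503644 counts, of which the 10 genes took 0.0555% to 0.0681% in CKD and 0.0211% to 0.0275% in Sham. These are shares of raw totals, without the scaling used for the levels below. Whether each library stands for its own animal is not stated in the labels, and p-values may rest on technical spread alone. In bulk tissue, fewer cells of a type and less RNA per cell cannot be told apart.

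The libraries within a group were not alike, and Sham 2 stood apart from the others. Sham 2 had 37.9% of its counts from the mitochondrial genome, against 14.4% and 15.3% in Sham 1 and Sham 3 and 8.83% to 10.8% in CKD. Levels below are in CPM, counts relative to library size, with library sizes scaled by composition factors (TMM). On this scale the 10 genes summed to 490 to 574 CPM in CKD and 251 to 319 CPM in Sham. Summed over 8 collecting duct markers, the level was 388 to 426 CPM in CKD, against 638, 2395 and 698 CPM in Sham 1, 2 and 3. Summed over 9 proximal tubule markers it was 10496 to 14926 CPM in CKD, against 14864, 5779 and 20902 CPM in Sham 1, 2 and 3. Scaling by library totals alone, without composition factors, moved the median log2 fold change of all tested genes up by 0.42.

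Promoter sequences are shown for Acta2, the usual marker of myofibroblasts, and Pdgfb, the member whose difference passed the test, because smooth muscle genes are known to be switched on through CArG boxes bound by serum response factor. RefSeq promoter windows of 300 bases, 250 before to 50 after the gene start in GRCr8, matched 7 of the 10 genes by symbol, all but Tagln, Myh11 and Pdgfrb. The CArG box was searched as 2 Cs, 6 bases of A or T and 2 Gs, a pattern that reads the same on both strands, and in a relaxed form in which at least 5 of the 6 are A or T. The relaxed form includes the strict one. Capitals mark the relaxed boxes.
Acta2: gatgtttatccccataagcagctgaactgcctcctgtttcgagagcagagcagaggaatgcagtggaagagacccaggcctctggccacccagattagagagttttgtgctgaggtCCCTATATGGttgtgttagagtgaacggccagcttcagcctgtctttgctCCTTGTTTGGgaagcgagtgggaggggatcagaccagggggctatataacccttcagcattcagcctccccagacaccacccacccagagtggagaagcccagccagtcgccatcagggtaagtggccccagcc
Pdgfb: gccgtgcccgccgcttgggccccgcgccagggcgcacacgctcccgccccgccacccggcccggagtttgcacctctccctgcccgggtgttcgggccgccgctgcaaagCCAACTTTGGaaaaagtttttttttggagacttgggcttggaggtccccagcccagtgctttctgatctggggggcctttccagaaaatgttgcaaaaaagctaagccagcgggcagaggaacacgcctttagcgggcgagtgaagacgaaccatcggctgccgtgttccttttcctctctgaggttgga
The Acta2 window lies at chr1:241172454-241172753 on the minus strand and the Pdgfb window at chr7:113438294-113438593 on the minus strand. Acta2 held 2 relaxed boxes, starting 134 and 84 bases before the gene start, and Pdgfb held 1, starting 140 bases before it. The windows of Des, Cnn1, Pdgfra, Rgs5 and Cspg4 held none, and none of the 7 windows held the strict form. Over all 33469 promoters of that length, 9.42% held at least 1 relaxed box, 0.846% held 2 or more and 1.64% held the strict form. A match describes letters in this window and is not a measured binding site.

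Across the 10 genes the comparison asked which parts of the mural and myofibroblast programme differed between CKD and Sham kidneys. Pdgfb rose 4.52-fold, and it was the only member past an adjusted p of 0.05. Des, Tagln, Pdgfrb, Pdgfra and Cspg4 had higher values in every CKD library than in any Sham library without passing. Acta2 and Rgs5 had means within 1.12-fold of each other between CKD and Sham, and Myh11 and Cnn1 had ranges that overlapped.

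By edgeR's quasi-likelihood test over all genes, 1 of the 10 members was called higher in CKD, where 2.67% of all tested genes were and 3.82% were called in either direction. DESeq2 called 4 members higher, where it called 8.97% of all tested genes higher, and limma-voom called 1, where it called 0.781%. Among other scalings, upper-quartile factors gave 2 members (3.57% of all tested genes called higher) and library totals alone gave 5 (13.3%), and the fit without Sham 1 gave 3 (4.96%). Without CKD 3 edgeR called 1 member (2.15%). Without CKD 1, CKD 2, Sham 2 or Sham 3 it called 0 (0%, 0%, 0% and 0.00631% of all tested genes called higher), with 5, 4, 6 and 4 members at an unadjusted p under 0.05. No member was called lower, in edgeR, DESeq2 or limma-voom, where edgeR called 1.15% of all tested genes lower. In the edgeR fit of all 6 libraries 0 members were lower at an unadjusted p under 0.05. Of the 10, 5 had an unadjusted p under 0.05, where 23.8% of all tested genes did. In 6 of the 10 every CKD library lay above every Sham library, where this held for 18.8% of all tested genes. In none did every CKD library lie below every Sham library, where this held for 12.4% and a gap in either direction for 31.2%. The median log2 fold change was 0.99 over the 10 members and -0.01 over all tested genes, and 9 of the 10 had a positive value, as did 49.5% of all tested genes. The members were chosen with earlier results of these data known, so these shares are no independent test.

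**Figure D1:**
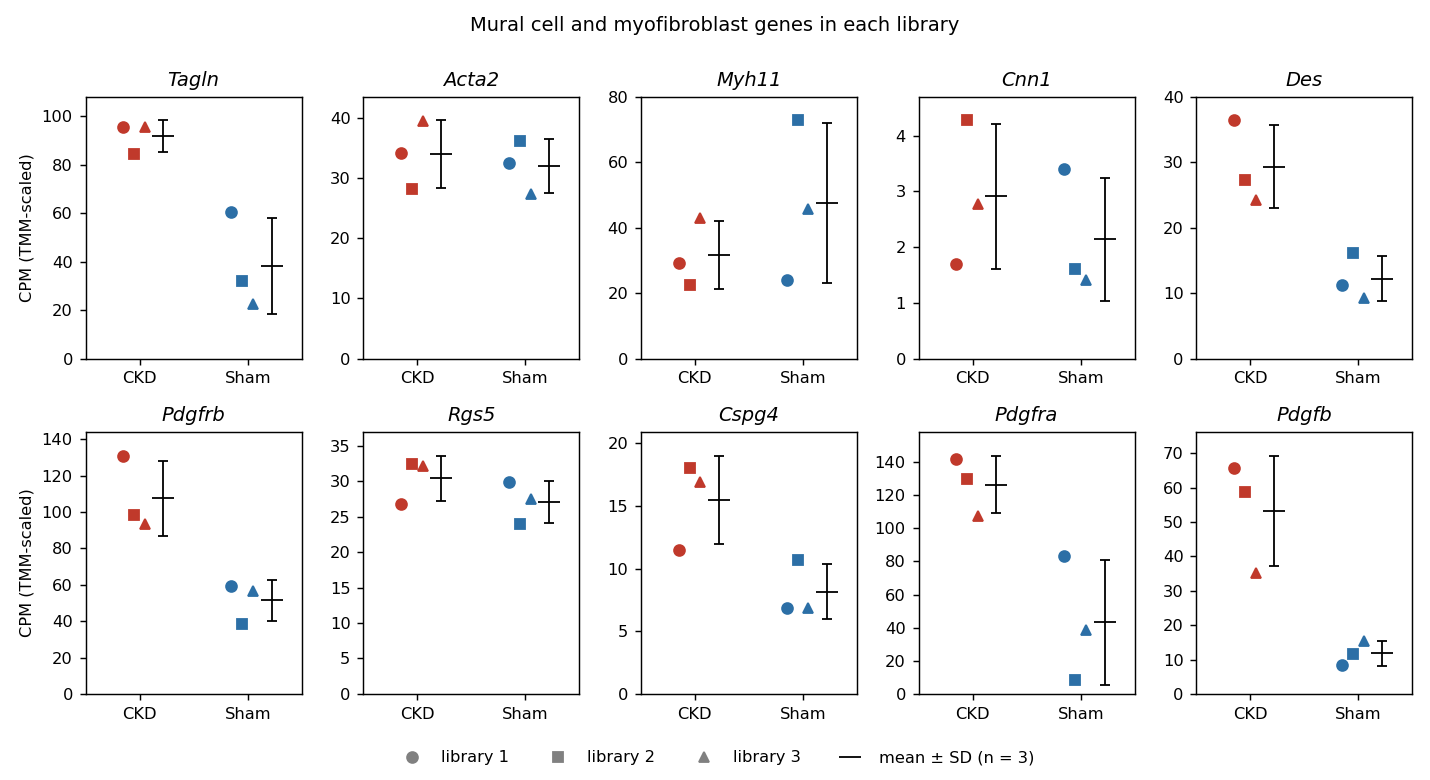
Level of each of the 10 genes in each library, in TMM-scaled CPM on linear axes that start at 0, with CKD left of Sham, 1 symbol shape per library number and bars for mean ± SD (n = 3). The CKD points lie above all Sham points for Tagln, Des, Pdgfrb, Cspg4, Pdgfra and Pdgfb, and the groups overlap for Acta2, Myh11, Cnn1 and Rgs5.

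Pdgfb, which encodes the PDGF-B chain, stood at 65.8, 58.7 and 35.3 CPM in CKD 1, 2 and 3, against 8.27, 11.6 and 15.5 CPM in Sham 1, 2 and 3. The lowest CKD library was thus above the highest Sham library. Means were 53.3 ± 16.0 CPM in CKD and 11.8 ± 3.61 CPM in Sham (SD, n = 3 each), which edgeR put at 2.18 ± 0.33 on the log2 scale (SE, adjusted p = 0.0316). Its 95% interval ran from 2.63-fold to 7.76-fold. The size varied little with the libraries left out, with log2 fold changes from 1.93 to 2.41, but the call was lost without CKD 1, CKD 2, Sham 2 or Sham 3 (edgeR adjusted p = 0.161, 0.153, 0.0603 and 0.096). Without CKD 1 or CKD 2 edgeR called 0 genes of the whole table, with 2330 and 2312 at an unadjusted p under 0.05, so every edgeR call given here was lost in those fits. Without Sham 2 it called 0 genes higher in CKD and without Sham 3 it called 1, with 4261 and 3446 genes at an unadjusted p under 0.05 in either direction. In the deposited table Pdgfb (ENSRNOG00000017197) lies on chromosome 7 from 111540345 to 111557984 on the minus strand, in coordinates whose build is uncertain.

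Pdgfrb encodes the PDGF beta receptor, the receptor of pericytes, mesangial cells and fibroblasts to which PDGF-B binds. It stood at 131, 98.4 and 93.2 CPM in CKD 1, 2 and 3, against 59.4, 38.7 and 56.7 CPM in Sham 1, 2 and 3. The groups did not overlap, and the mean was 107 ± 20.4 CPM in CKD and 51.6 ± 11.3 CPM in Sham (SD, n = 3 each). Its log2 fold change of 1.06 ± 0.25 missed the threshold (edgeR adjusted p = 0.0570), while its interval ran from 1.40-fold to 3.10-fold. Pdgfrb was called by DESeq2, with upper-quartile factors, with library totals alone and without Sham 1 (adjusted p = 0.00495, 0.0434, 0.0193 and 0.0411). Pdgfrb (ENSRNOG00000018461) lies on chromosome 18 from 54499964 to 54538843 on the plus strand in the deposited coordinates.

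Pdgfra (ENSRNOG00000002244) encodes the PDGF alpha receptor, a receptor of interstitial fibroblasts. It stood at 142, 130 and 108 CPM in CKD 1, 2 and 3, against 83.2, 8.17 and 38.5 CPM in Sham 1, 2 and 3. The CKD libraries lay close together, while the highest Sham library had 10.2 times the level of the lowest, the widest spread of the 10 genes within either group. Its coefficient of variation was 13.8% in CKD and 87.2% in Sham. The log2 fold change was 1.54 ± 0.68 (edgeR adjusted p = 0.218), or 1.01 without Sham 2 and 2.40 without Sham 1. Its count in Sham 2 was 117, against 1248 and 547 in Sham 1 and Sham 3. Summed over 19 fibroblast and myofibroblast markers, the level was 810 to 1469 CPM in CKD, against 500, 77.9 and 242 CPM in Sham 1, 2 and 3, so the marker sum had the same order of Sham libraries as Pdgfra. The part of library makeup in the Pdgfra values was not tested.

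The other PDGF genes gave a mixed picture. Of 8 genes of PDGF ligands and partners tested, 0 passed in edgeR or limma-voom, 2 were higher and 0 lower at an unadjusted p under 0.05 in edgeR, and DESeq2 called 2 higher. Their median log2 fold change was 0.52. Pdgfc, another PDGF chain, averaged 42.5 ± 5.14 CPM in CKD and 17.3 ± 6.56 CPM in Sham (edgeR adjusted p = 0.0668). Lrp1, an endocytic receptor that partners with PDGF receptor beta, averaged 158 ± 34.9 CPM in CKD and 59.7 ± 29.9 CPM in Sham (edgeR adjusted p = 0.0942). Furin, a protease that cuts growth factor precursors and the most abundant of the list, averaged 360 ± 19.4 CPM in CKD and 377 ± 110 CPM in Sham (edgeR adjusted p = 0.915).

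Endothelium is a known source of PDGF-B. Of 11 blood endothelial markers tested, 0 were called in edgeR or limma-voom, while 0 were higher and 2 lower at an unadjusted p under 0.05 in edgeR and DESeq2 called 1 lower. Their median log2 fold change was -0.33, with 3 positive and 8 negative values, so the markers did not all go the same way. The summed level was 606 to 787 CPM in CKD and 717 to 896 CPM in Sham. Pecam1, an adhesion molecule of endothelial junctions, averaged 92.4 ± 12 CPM in CKD and 144 ± 22.4 CPM in Sham (edgeR adjusted p = 0.127), and Emcn, a surface sialomucin of capillaries, 36.2 ± 10.6 CPM in CKD and 58.4 ± 3.65 CPM in Sham (edgeR adjusted p = 0.142). Macrophages can also release PDGF-B. Of 8 macrophage markers, 3 rose in edgeR, the scavenger receptor Cd163, the mannose receptor Mrc1 and the leukocyte phosphatase Ptprc (log2 fold changes of 4.46, 2.49 and 1.79, edgeR adjusted p = 0.0302, 0.0285 and 0.0405), and the summed level was 202 to 395 CPM in CKD and 48.7 to 113 CPM in Sham. DESeq2 called 6 of these markers higher and limma-voom 2. Cd163 had 1 to 8 counts in a Sham library. Which cells carried the Pdgfb reads was not tested.

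Cspg4 (ENSRNOG00000017208) encodes the NG2 proteoglycan of pericyte surfaces. It stood at 11.5, 18.0 and 17.0 CPM in CKD 1, 2 and 3, against 6.87, 10.7 and 6.90 CPM in Sham 1, 2 and 3. The lowest CKD library, CKD 1, was just above the highest Sham library, Sham 2. Means were 15.5 ± 3.51 CPM in CKD and 8.15 ± 2.20 CPM in Sham (SD, n = 3 each), which is 0.93 ± 0.31 on the log2 scale (edgeR adjusted p = 0.123). Its gene holds Odf3l1 on the other strand, but that gene had only 13 counts over all libraries.

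Rgs5 (ENSRNOG00000002730), a regulator of G-protein signalling that marks pericytes, gave another pattern. It stood at 26.8, 32.4 and 32.1 CPM in CKD 1, 2 and 3, against 29.9, 24.0 and 27.4 CPM in Sham 1, 2 and 3. The groups overlapped, and the means of 30.4 ± 3.15 CPM in CKD and 27.1 ± 2.97 CPM in Sham (SD, n = 3 each) differed by about the spread between libraries. The log2 fold change was 0.17 ± 0.20 (edgeR adjusted p = 0.657), with an interval from 0.814-fold to 1.55-fold. Rgs5 had the lowest coefficient of variation of the 10 genes in Sham, at 11%, and the second lowest in CKD, at 10.4%.

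Of 15 further pericyte and mesangial genes tested, 3 rose in edgeR and 0 fell at either an adjusted or an unadjusted p under 0.05. The median log2 fold change was 0.01, with 8 positive and 7 negative values. DESeq2 called 3 higher and 0 lower, and limma-voom called 1 higher and 0 lower. Gucy1a1 and Gucy1b1, the subunits of the nitric oxide receptor soluble guanylate cyclase, rose by log2 fold changes of 1.87 ± 0.34 and 2.08 ± 0.42 (edgeR adjusted p = 0.0394 and 0.0441). Gucy1a1 averaged 52.1 ± 9.27 CPM in CKD and 14.2 ± 6.38 CPM in Sham. Heyl, a Notch target of mural cells, also rose, with 25.8 ± 3.01 CPM in CKD and 12.3 ± 1.76 CPM in Sham (edgeR adjusted p = 0.0481). The most abundant of this list, the ecto-nucleotidase Nt5e, which is also made by tubule cells, averaged 74.9 ± 17.4 CPM in CKD and 84.6 ± 42.9 CPM in Sham (edgeR adjusted p = 0.836).

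Acta2, smooth muscle actin, stood at 34.2, 28.2 and 39.5 CPM in CKD 1, 2 and 3, against 32.5, 36.2 and 27.3 CPM in Sham 1, 2 and 3. The libraries of both groups interleave, with CKD 3 the highest and Sham 3 the lowest. The interval of its change ran from 0.748-fold to 1.51-fold, so a rise of the size seen for Pdgfb lies outside it. Its fitted log2 fold change of 0.09 turned to -0.03 without CKD 3 and to -0.080 without Sham 3. With library totals alone it was 0.51, against a median shift of 0.42 of all genes under that scaling. The muscle actin Actg2 had 3 to 43 counts in CKD and 5 to 30 in Sham. The cytoplasmic actins had far more reads than Acta2, with 24521 to 40880 counts of Actb in CKD and 10338 to 21531 in Sham, and 13099 to 21552 counts of Actg1 in CKD and 7687 to 15423 in Sham. These are raw counts, not scaled by the composition factors, so they do not show whether Actb or Actg1 differed between CKD and Sham. How the counting treated reads that match more than 1 actin gene is not known, so the Acta2 values are uncertain to that extent. Acta2 (ENSRNOG00000058039) lies on chromosome 1 from 231746548 to 231759554 on the minus strand in the deposited coordinates.

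Tagln encodes transgelin, an actin-binding protein of smooth muscle and early myofibroblasts. It stood at 95.7, 84.3 and 95.4 CPM in CKD 1, 2 and 3, against 60.5, 32 and 22.5 CPM in Sham 1, 2 and 3. All CKD libraries lay above Sham 1, the highest Sham library. The CKD values were the most even of the 10 genes (coefficient of variation 7.07%), while Sham spread by 51.6%. The log2 fold change was 1.26 ± 0.36 (edgeR adjusted p = 0.0855), or 1.70 without Sham 1 (edgeR adjusted p = 0.0202) and 0.93 without Sham 3. DESeq2 and library totals alone also called it (adjusted p = 0.0244 and 0.0258). Tagln (ENSRNOG00000017628, chromosome 8 from 46222472 to 46230668 on the minus strand) overlaps Pcsk7 on the other strand over 2234 bases, and no source used here says whether reads were counted by strand, so their reads cannot be told apart there. Pcsk7 had 4181 counts over the 6 libraries, against 7228 of Tagln, and itself gave -0.47 ± 0.24 on the log2 scale (edgeR adjusted p = 0.289).

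Myh11 (ENSRNOG00000057880) encodes the smooth muscle myosin heavy chain, the most specific of the contractile markers for mature smooth muscle. It stood at 29.3, 22.6 and 42.9 CPM in CKD 1, 2 and 3, against 24.0, 72.7 and 45.7 CPM in Sham 1, 2 and 3. The groups overlapped, and Sham 2, the library with the lowest Pdgfra, had the highest Myh11. Myh11 was the only member with a negative log2 fold change, -0.59 ± 0.42 (edgeR adjusted p = 0.433). It was -0.17 without Sham 2 (edgeR unadjusted p = 0.661, adjusted 0.798) and -0.95 without Sham 1 (edgeR unadjusted p = 0.0275, adjusted 0.115).

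Cnn1 (ENSRNOG00000027736), the actin-binding protein calponin, had the fewest counts of the members, with 35, 86 and 54 counts in CKD 1, 2 and 3, against 51, 23 and 20 counts in Sham 1, 2 and 3. These were 1.69 to 4.27 CPM in CKD and 1.41 to 3.40 CPM in Sham, ranges that overlapped over most of their length. The interval of its change ran from 0.569-fold to 3.24-fold (edgeR adjusted p = 0.663), and the coefficient of variation was 44.6% in CKD and 51.3% in Sham.

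Des encodes desmin, an intermediate filament of muscle cells that rat mesangial cells and pericytes also make and that is used as a marker of injured podocytes. It stood at 36.4, 27.3 and 24.2 CPM in CKD 1, 2 and 3, against 11.3, 16.1 and 9.29 CPM in Sham 1, 2 and 3. Every CKD library was above every Sham library. The means were 29.3 ± 6.35 CPM in CKD and 12.2 ± 3.49 CPM in Sham (SD, n = 3 each), and the log2 difference of 1.26 ± 0.29 missed the threshold (edgeR adjusted p = 0.0548). DESeq2 and library totals alone called it (adjusted p = 0.00419 and 0.0169). Its log2 fold change stayed between 1.03 and 1.47 with any library left out. Des (ENSRNOG00000019810) lies on chromosome 9 from 76850982 to 76858699 on the plus strand in the deposited coordinates.

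**Figure D2:**
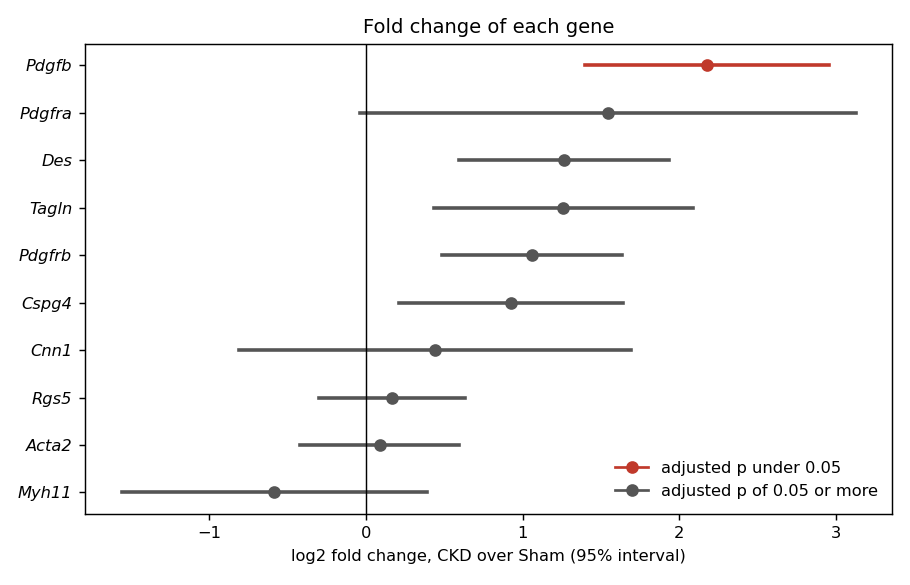
Log2 fold change of each gene, CKD over Sham, with its 95% interval from the edgeR fit over 15371 genes. Pdgfb (2.18) passed an adjusted p of 0.05, the intervals of Des, Tagln, Pdgfrb and Cspg4 lie above 0, and those of Pdgfra, Cnn1, Rgs5, Acta2 and Myh11 span 0.

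Among 18 further genes of the smooth muscle contractile apparatus tested, 2 rose in edgeR and 0 fell at either an adjusted or an unadjusted p under 0.05. The median log2 fold change was 0.54, with 14 positive and 4 negative values, while DESeq2 called 3 higher and 0 lower and limma-voom 1 higher and 0 lower. The genes that rose in edgeR were Flna, an actin crosslinker and the most abundant of the list, and Actn1, an alpha-actinin, which are both made by many cell types besides muscle. Flna stood at 435, 303 and 187 CPM in CKD 1, 2 and 3, against 88.6, 95 and 82.1 CPM in Sham 1, 2 and 3 (edgeR adjusted p = 0.0399). Actn1 averaged 99.7 ± 43.2 CPM in CKD and 24.9 ± 6.07 CPM in Sham (edgeR adjusted p = 0.0399). Both were highest in CKD 1 and lowest in CKD 3, as were Des, Pdgfrb, Pdgfra and Pdgfb, while Acta2 and Myh11 were highest in CKD 3 and Rgs5 was lowest in CKD 1.

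Of 18 tested fibroblast and myofibroblast markers, 1 rose in edgeR and 0 fell at either an adjusted or an unadjusted p under 0.05, with 10 higher at the unadjusted level. DESeq2 called 8 higher and limma-voom called 0, so the single edgeR call was not made by limma-voom. Their median log2 fold change of 1.98 compares with 0.99 for the 10 members, a difference that was not tested. Col1a1, a chain of type I collagen, was the gene that rose, at 152 to 273 CPM in CKD and 9.29 to 53.3 CPM in Sham (log2 fold change 2.90 ± 0.62, edgeR adjusted p = 0.0493).

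Other cell types that can carry these genes were examined by their markers. Desmin and actin also mark striated muscle, and the summed level of 10 skeletal and cardiac muscle genes in the table was 1.69 to 4.92 CPM in CKD and 1.0 to 4.82 CPM in Sham, with 2 genes above the filter and 0 called in edgeR, DESeq2 or limma-voom or at an unadjusted p under 0.05. For the urothelium of the renal pelvis, which lies beside smooth muscle, 0 of 6 markers passed the filter and their sum was 0.434 to 0.845 CPM in CKD and 0.282 to 0.978 CPM in Sham. For Schwann cells, which ensheath the nerves that run with vessels, 5 markers summed to 8.76 to 17.9 CPM in CKD and 10.3 to 37.1 CPM in Sham. Adipocyte markers, 5 in number, summed to 11.9 to 24.9 CPM in CKD and 13.1 to 145 CPM in Sham. In these last lists 0 genes were called in edgeR, DESeq2 or limma-voom, and 1 adipocyte gene was lower at an unadjusted p under 0.05. Of 7 podocyte markers, 1 rose in edgeR, Tcf21, a transcription factor that interstitial fibroblasts also make (log2 fold change 1.36 ± 0.20, edgeR adjusted p = 0.0316). The podocyte sum was 418 to 737 CPM in CKD, against 238, 888 and 742 CPM in Sham 1, 2 and 3. Of 9 proximal tubule genes 0 were called in edgeR, DESeq2 or limma-voom or at an unadjusted p under 0.05, and of 7 tested collecting duct genes edgeR and limma-voom called 0, with 4 lower at an unadjusted p under 0.05 and 4 called lower by DESeq2. The genes with the smallest p in the lists without a call were the sodium pump subunit Fxyd4 and the anion exchanger Slc4a1 for collecting duct (log2 fold changes of -1.83 and -2.08, edgeR adjusted p = 0.0871 and 0.102) and the transporters Slc13a3 and Slc22a6 for proximal tubule (edgeR adjusted p = 0.547 and 0.594). For the other lists they were Adipoq and Cidec of adipocytes (edgeR adjusted p = 0.197 and 0.216), Mbp of Schwann cells (0.466) and Ttn and Tnnt3 of striated muscle (0.873 and 0.943). The part of these markers in the members' values was not tested.

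**Figure D3:**
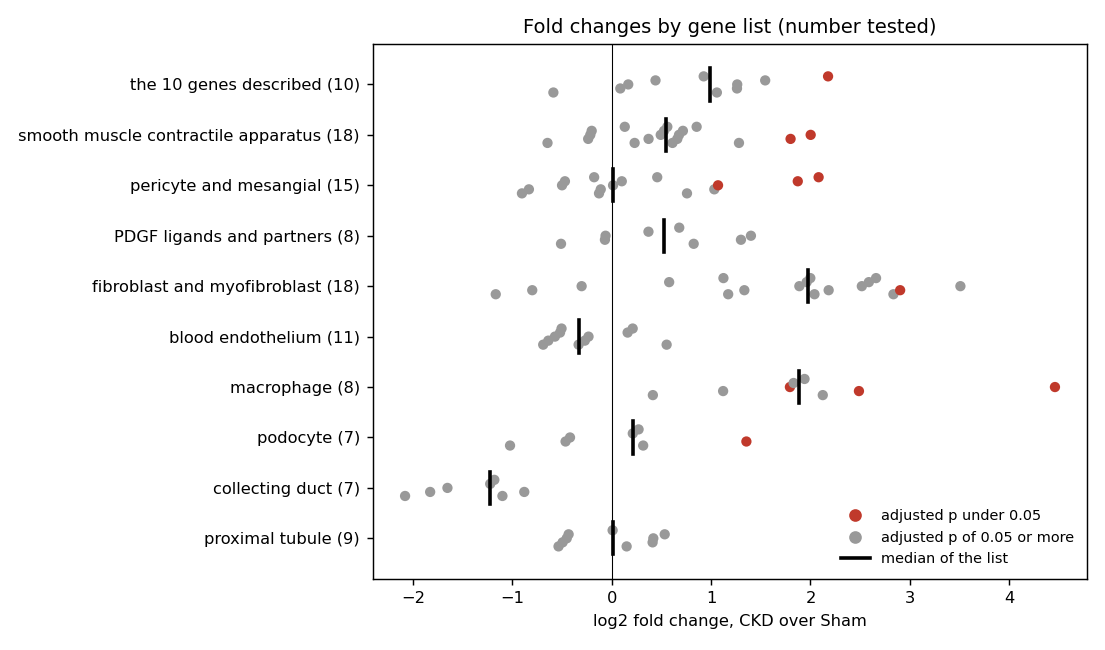
Log2 fold change, CKD over Sham, of each tested gene by list, with red points for an adjusted p under 0.05 and a black bar at each list's median. The members' median of 0.99 lies between those of the fibroblast list (1.98) and the contractile list (0.54), and the endothelial median is -0.33.

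Levels can be compared between genes only per length, here as CPM per kilobase of the authors' gene length. In CKD Tagln was the highest member at 72.0 ± 5.09 CPM per kilobase and did not overlap the next, Pdgfb, at 31.0 ± 9.30. Acta2 (21.0 ± 3.48), Rgs5 (20.9 ± 2.16), Pdgfrb (19.8 ± 3.75) and Pdgfra (19.0 ± 2.62) followed, each overlapping its neighbour, and Pdgfb also overlapped Acta2. Des (8.90 ± 1.93) and Myh11 (4.72 ± 1.54) stood apart below them, and Cspg4 (1.92 ± 0.435) and Cnn1 (1.80 ± 0.804) overlapped at the bottom (SD, n = 3).

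In Sham the order per length was Tagln (30.0 ± 15.5 CPM per kilobase), Acta2 (19.7 ± 2.75) and Rgs5 (18.6 ± 2.04), which overlapped as neighbours, and Rgs5 did not overlap the next. Pdgfrb (9.49 ± 2.07), Myh11 (7.08 ± 3.64), Pdgfb (6.85 ± 2.1), Pdgfra (6.51 ± 5.68) and Des (3.71 ± 1.06) followed with overlapping neighbours, and Cnn1 (1.32 ± 0.680) and Cspg4 (1.01 ± 0.272) were lowest. Pdgfb thus ranked second in CKD and sixth in Sham by its mean level per length.

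Ratios of counts within a library do not depend on how libraries are scaled, and 6 such ratios were compared with exact two-sided permutation tests. With 3 libraries against 3 the smallest p such a test can give is 0.1, so none could reach 0.05. The log2 ratio of Des to Acta2 was 0.09, -0.05 and -0.70 in CKD 1, 2 and 3, against -1.53, -1.17 and -1.56 in Sham 1, 2 and 3. It averaged -0.22 ± 0.42 in CKD and -1.42 ± 0.21 in Sham (SD, n = 3 each), with no overlap (exact p = 0.1, adjusted 0.15 over 6 ratios). For Pdgfrb to Acta2 it was 1.66 ± 0.37 in CKD and 0.67 ± 0.51 in Sham, and for Pdgfra to Acta2 1.90 ± 0.40 in CKD and -0.10 ± 1.83 in Sham, both without overlap (exact p = 0.1 and adjusted 0.15 for each). Relative to Acta2, all 3 genes thus stood higher in each CKD library than in any Sham library. The gap was narrow for Pdgfra to Acta2, at 1.44 in CKD 3 and 1.36 in Sham 1. It was also narrow for Pdgfrb to Acta2, at 1.24 in CKD 3 and 1.05 in Sham 3. All 3 ratios share Acta2 and reuse the member counts above, so they are not separate results.

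The log2 ratio of Rgs5 to Pdgfrb was -2.29, -1.60 and -1.54 in CKD 1, 2 and 3, against -0.99, -0.69 and -1.05 in Sham 1, 2 and 3. It averaged -1.81 ± 0.42 in CKD and -0.91 ± 0.19 in Sham, with every CKD library below every Sham library (exact p = 0.1, adjusted 0.15). Myh11 to Acta2 gave -0.14 ± 0.23 in CKD and 0.44 ± 0.77 in Sham, and Pdgfra to Pdgfrb 0.24 ± 0.14 in CKD and -0.77 ± 1.38 in Sham, each with overlap (exact p = 0.4 and adjusted 0.4 for each). The Pdgfra to Acta2 difference of 2.0 was 0.97 without Sham 2, and the Pdgfra to Pdgfrb difference of 1.01 was 0.28 without it.

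**Figure D4:**
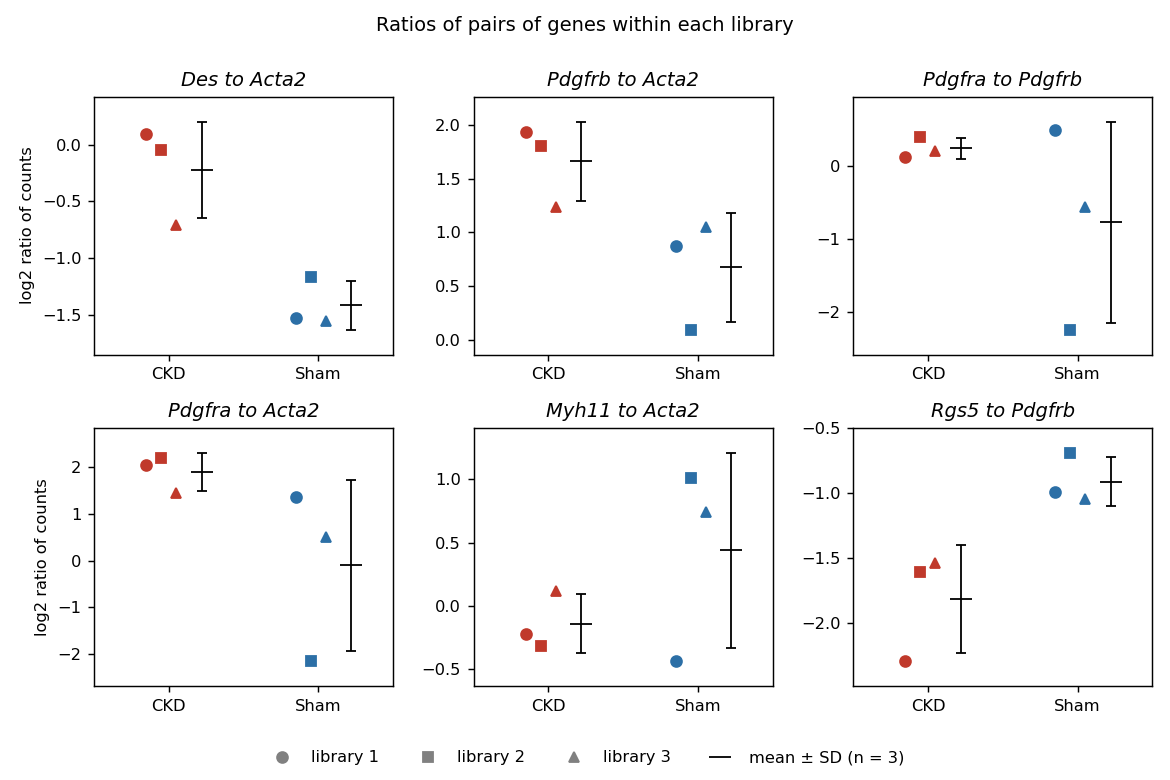
Log2 ratio of the counts of 2 genes within each library for 6 pairs, with CKD left of Sham, symbol shape for the library number and bars for mean ± SD (n = 3); axes do not start at a common value. CKD and Sham points do not overlap for Des to Acta2, Pdgfrb to Acta2, Pdgfra to Acta2 and Rgs5 to Pdgfrb.

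Leaving out single libraries changed sizes most for Pdgfra and least for Rgs5 and Acta2, as ranges of the log2 fold change. The ranges were 1.01 to 2.40 for Pdgfra, 0.06 to 0.90 for Cnn1, -0.95 to -0.17 for Myh11, 0.93 to 1.70 for Tagln, 0.05 to 0.26 for Rgs5 and -0.080 to 0.21 for Acta2. Those of Pdgfrb (0.85 to 1.16) and Cspg4 (0.75 to 1.13) stayed positive, as did those of Des and Pdgfb.

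**Figure D5:**
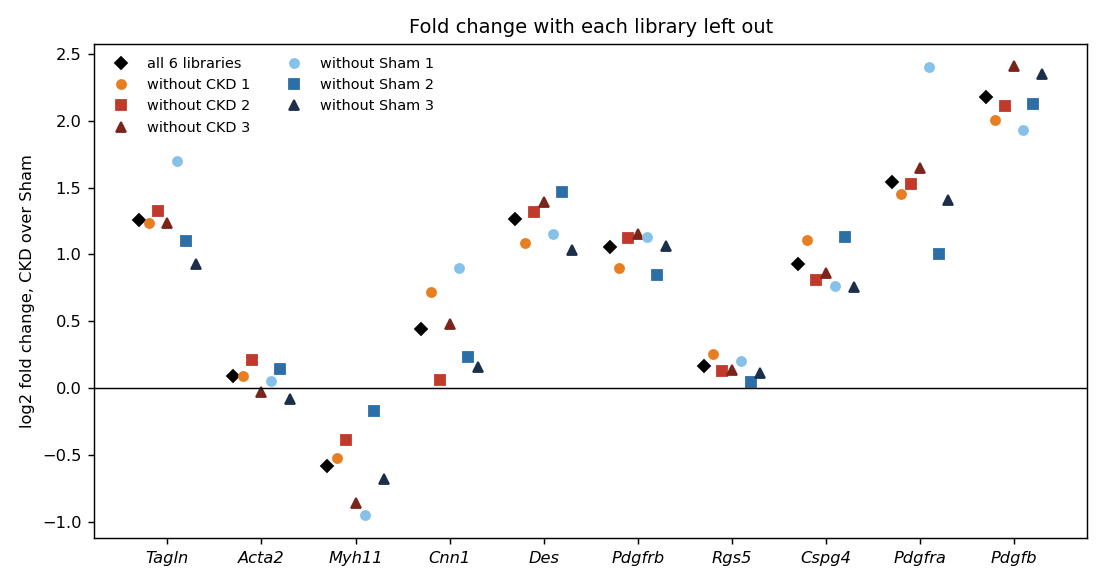
Log2 fold change, CKD over Sham, of each gene with all 6 libraries (black) and with each library left out in turn. Pdgfb lies between 1.93 and 2.41 throughout, Acta2 stays between -0.080 and 0.21, and Pdgfra moves most, between 1.01 and 2.40.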

How the data were processed

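Per the labels' protocols, TRIzol was used for total RNA of renal tissue and a VAHTS Universal V5 kit for the libraries. The authors deposited 1 table of unnormalized counts, with a column for each of the 6 libraries. The submitters' processing notes list Rnor_6.0, HTSeq 0.11.2, HISAT2 2.1.0 and fastp 0.20.1 without roles, and no source used here gives a strand setting. The deposited gene lengths were used for levels per length. The build of the deposited coordinates is uncertain.

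Columns were matched to samples by title. Counts of same-group libraries differed by more than sampling noise (chi-square over its degrees of freedom was 30.9 to 330), so none was a copy of another. Genes were filtered with filterByExpr (minimum count 10, minimum total 15), scaled by TMM and fitted with the group as only term by edgeR 4.0.16's robust quasi-likelihood test (limma 3.58.1, R 4.3.3), with Benjamini-Hochberg adjustment over 15371 genes. In counts simulated for CKD against Sham (15113 genes run), edgeR found 53% of 100 genes with a 4-fold change, 3% of 100 with a 2-fold change and 3 unchanged ones. No other gene was changed in the simulation, while edgeR called 587 in the real data, so these shares need not hold there. DESeq2 1.42.0, limma-voom, other scalings and filters, summed rows, a replicate block and each library left out were alternatives.

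The members and the 13 marker and pathway lists were chosen with earlier results of these data known. Named were all members, the list genes past the threshold (up to 4 a list), otherwise the 2 with the smallest p (1 such gene is not reported here), and the most abundant gene of the contractile, pericyte and PDGF lists. Mrtfa and Mrtfb were found through older symbols, and promoter windows came from RefSeq (GRCr8).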

Additional observations from a re-analysis of the deposited data

How the results depend on the processing

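Over all genes edgeR called 587, of which 70.0% were higher in CKD, and 1 member, Pdgfb. Library totals alone gave 2228 genes (91.9% higher in CKD) and 5 members (Des, Tagln, Pdgfrb, Pdgfb and Cspg4), where 13.3% of all tested genes were called higher. DESeq2 gave 2497 genes (55.2% higher) and 4 members (8.97% of all genes called higher), limma-voom 195 genes and upper-quartile factors 2 members (3.57%). Leaving out 1 library gave 0 to 1711 genes and 0 to 3 members called higher, the most without Sham 1 (Tagln, Pdgfrb and Pdgfb, where 4.96% of all genes were called higher). Without Sham 2 and Sham 3, 2 and 7 genes were called and 0 members; at an unadjusted p under 0.05 there were 4261 and 3446 genes. Among member fold changes only that of Acta2 changed sign, at -0.03 without CKD 3 and -0.080 without Sham 3, and its log2 fold change with 1 library left out ranged from -0.080 to 0.21. No member was called lower under any of these settings, and the 6 ratios kept their sign in all of theirs.

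Labels share replicate numbers between groups but do not say that these pair samples, so the numbers were not used as pairs. Deviations from the group mean correlated at -0.22, 0.0044 and -0.16 between same-numbered libraries. Between different-numbered libraries the correlations ran from -0.10 to 0.20. With 3 libraries in each group these values cannot decide whether samples were paired. With the replicate block edgeR called 10 genes and 0 members (2876 genes and 6 members at an unadjusted p under 0.05), and sign-flip tests of the ratios over 3 pairs cannot go below 0.25. Cnn1 had the fewest counts of the members, 35 to 86 in CKD and 20 to 51 in Sham, and the part of depth in its wide interval was not tested. The causes of these differences were not tested.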
